A study of Mus musculus with 8 samples.

Results

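The genes examined here encode nuclear receptors of the mouse. The 45 members were taken by name from the GENCODE annotation of the mouse genome build mm10, out of 21938 protein-coding genes. The rule that defines them uses gene names and not peaks, although the list and its grouping were drawn up with earlier results of these data known. They were sorted into groups from background knowledge of the tissues in which each receptor is used. Of these, 16 have known use in skeletal muscle and 15 have wide or other use. Another 7 are of liver and gut, 4 of gonad and germ cells and 3 of retina and brain. Use elsewhere did not keep a receptor out of the muscle group. Thus Esr1, Vdr, Nr3c1 and Rxra are in it, while Esr2 and Pgr are in the gonad group. The border between muscle use and wide or other use was a judgement, and some receptors could be placed on either side. Ppara, described below as a receptor of liver and oxidative tissues, was placed in wide or other use.

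The study mapped H3K56ac, an acetylated lysine in the core of histone H3, with ChIP-seq (sequencing of immunoprecipitated chromatin) of muscle stem cells (MuSCs), to learn where the mark lies and how it changes without the deacetylase SIRT6. Freshly isolated MuSCs came from adult male C57BL/6 mice of 2 genotypes, Control (wild type) and Sirt6mKO, in which both Sirt6 alleles are floxed and a constitutively active Cre is expressed from the Pax7 promoter, so that the deletion reaches the skeletal muscle lineage and not MuSCs alone. Each genotype had 2 H3K56ac libraries and 2 input libraries (8 libraries in 4 groups). The material analysed was a single merged list of 105600 peaks, the intervals in which the mark stood above background, with no value per library.

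The list does not say which libraries gave a peak, so Control and Sirt6mKO cannot be told apart in any value below and no replicate error can be given. The study states the read depth of each library, but no peak can be traced to a library, so depth was not used here. A merged peak is at least as wide as the peaks it was built from, and its width is not its strength. As a check of the cell type, each of 6 MuSC markers (Pax7, Myf5, Calcr, Cdh15, Itga7 and Vcam1) had a peak near a transcription start of 7972 bp or more. Markers of other cells were marked less. Among them 2 of 4 blood and immune and 1 of 4 endothelial markers had a peak of any width within 3 kb of a transcription start. The same held for 2 of 3 fibro-adipogenic, 2 of 3 hepatocyte and 1 of 3 photoreceptor markers, and for 67.8% of all protein-coding genes. Ptprc, Cd3e, Cdh5, Tie1, Emcn, Ly6a, Alb, Crx and Rcvrn lacked any. The widest peak among these markers was the 5233 bp peak of Dcn, a matrix proteoglycan gene of fibroblasts. The cells had been depleted of those bearing Sca1, CD45 or CD31 and then sorted for Integrin-α7 and CD34 or for a Pax7 reporter, and the sort was not fully pure. What share of the receptor peaks came from other cells was not tested.

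Nuclear receptors are transcription factors that bind DNA as monomers, homodimers or heterodimers, many of them with a retinoid X receptor as the partner. Small lipophilic ligands such as thyroid hormone, steroids, retinoids, fatty acids, oxysterols and bile acids switch many of them between corepressors and coactivators, several of which are themselves histone deacetylases and acetyltransferases, while others are orphans without a settled ligand. In skeletal muscle they are known for setting fibre type, oxidative metabolism, the molecular clock and the response to glucocorticoids and thyroid hormone.

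A peak was counted as a promoter peak of a gene when at least 1 bp of it lay within 3 kb of an annotated transcription start site (TSS). By this measure promoter peaks were found at 39 of the 45 members, which is 86.7% (95% Wilson interval 73.8% to 93.7%), compared with 67.8% of all protein-coding genes. Promoter peaks that reached 5 kb were found at 12 of the 45, or 26.7%, compared with 16.5% of all protein-coding genes. The median widest promoter peak was 3388 bp over the 45 genes, with a gene without any counted as 0, and 2303 bp over all protein-coding genes. The members had a median of 6 annotated TSSs and 13.97 kb of promoter sequence, against 3 and 8.82 kb in all protein-coding genes. Of the TSSs of their coding transcripts 108 of 159 (67.9%) lay inside a peak, against 58.3% of all. The part of TSS number in the share with a promoter peak was not tested. The 45 genes are a list and not replicates of a condition, and the Wilson interval covers counting error only.

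The 3 groups differed in the presence and width of promoter peaks. All 16 muscle receptor genes and all 15 genes of wide or other use had a promoter peak, compared with 8 of the 14 genes of liver, gut, gonad, retina and brain. The share of the 14 was 57.1%, and its Wilson interval (32.6% to 78.6%) holds the 67.8% of all protein-coding genes. The intervals of the muscle receptors (80.6% to 100%) and of those of wide or other use (79.6% to 100%) lay above that share. The median widest promoter peak was 5120 bp in the muscle receptors, with a range of 964 to 13880 bp. It was 4080 bp (901 to 10507 bp) in those of wide or other use and 686.5 bp (0 to 4205 bp) in the 14 of the other organs. The ranges of the muscle receptors and the 14 overlapped from 964 to 4205 bp. Within this overlap lay Vdr, Rxrg, Esrrg, Nr4a1, Nr1d2, Esrra and Nr4a2 of the muscle receptors. Of the 14, Rorb, Esr2, Nr5a1 and Nr6a1 lay there. Apart from Nr6a1 none of the 14 exceeded the 1650 bp of Nr5a1, and apart from Vdr no muscle receptor gene lay below the 1755 bp of Rxrg. Peaks of at least 5 kb were present at 8 muscle receptors, 4 receptors of wide use and 0 of the 14. The median of all protein-coding genes was exceeded by 12 of the 16 muscle receptors and by 1 of the 14. No test over samples can be made with a merged list, and the difference between these groups was not tested.

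**Figure D1:**
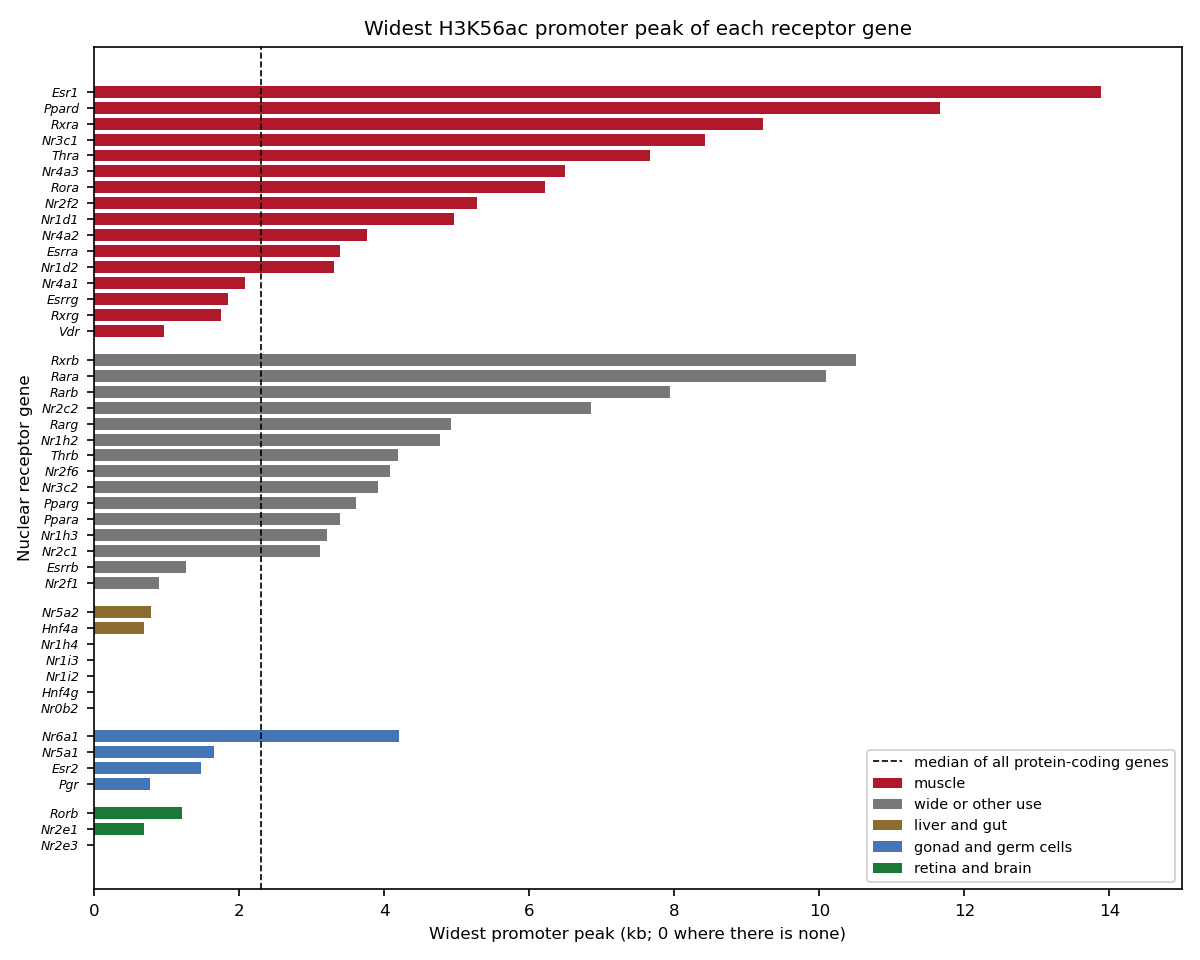
Width in kb of the widest H3K56ac promoter peak of each of the 45 receptor genes (bars, 0 where there is none), by group, with the median of all protein-coding genes at 2303 bp as a dashed line. Of the 16 muscle receptors 12 pass the line, and of the 14 receptors of liver, gut, gonad, retina and brain only Nr6a1 does.

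The number of annotated TSSs, which sets how much sequence counts as promoter, also differed between the groups. The median was 5 TSSs in the muscle receptors, 7 in those of wide use and 3.5 in the 14 of other organs, against 3 in all protein-coding genes. The part of this number in the group difference was not tested. Per base and per TSS, the values were as follows. The median share of the promoter sequence covered by peaks was 50.4% in the muscle receptors, 43.9% in those of wide use, 4.49% in the 14 and 21.3% in all protein-coding genes. Of the TSSs of coding transcripts, 47 of 55 in the muscle group (85.5%) lay inside a peak, as did 53 of 68 in the wide group (77.9%), 8 of 36 in the 14 (22.2%) and 58.3% of all. At the TSS of the transcript with the longest coding sequence a peak was present in 14 of 16, 12 of 15 and 2 of 14 genes.

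**Figure D2:**
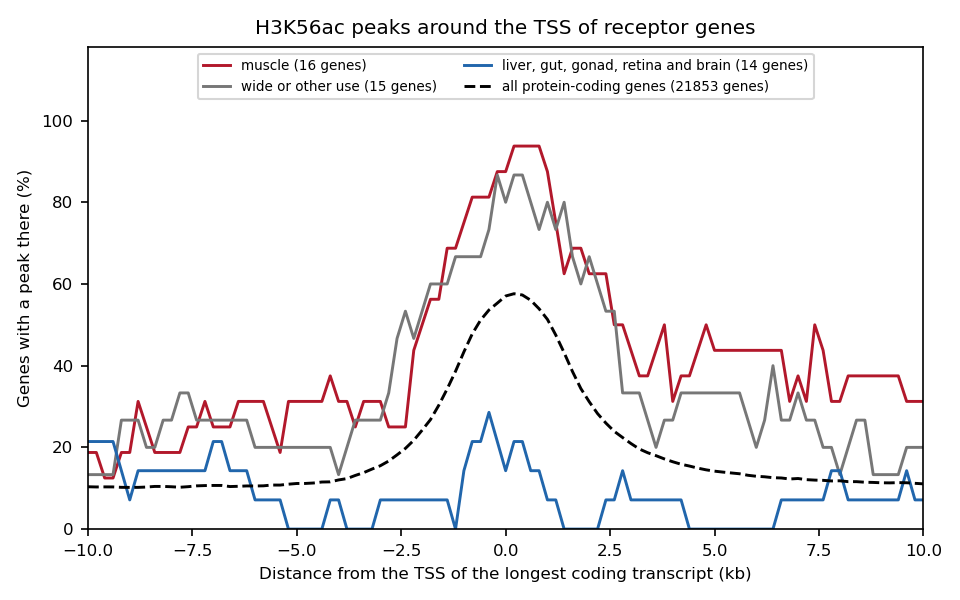
Share of genes (%) with an H3K56ac peak at each distance (kb, every 200 bp) from the TSS of the transcript with the longest coding sequence, for 3 receptor groups and all protein-coding genes. At the TSS itself a peak was present in 87.5% of muscle receptors, 80% of those of wide use, 14.3% of those of liver, gut, gonad, retina and brain, and 57.05% of all protein-coding genes.

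The promoter sequences of the receptors differed between these groups in the density of CpG dinucleotides. The 6 shown were picked as examples of high and low density and do not stand for their groups (exceptions are named below). They were taken from RefSeq (build GRCm38.p6), are the 150 bases that end just before the TSS, and have each CpG in capitals.
Rora, chr9:68653636-68653785, plus strand: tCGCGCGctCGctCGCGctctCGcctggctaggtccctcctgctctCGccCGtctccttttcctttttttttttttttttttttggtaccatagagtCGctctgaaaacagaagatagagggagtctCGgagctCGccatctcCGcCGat
Rxra, chr2:27677051-27677200, plus strand: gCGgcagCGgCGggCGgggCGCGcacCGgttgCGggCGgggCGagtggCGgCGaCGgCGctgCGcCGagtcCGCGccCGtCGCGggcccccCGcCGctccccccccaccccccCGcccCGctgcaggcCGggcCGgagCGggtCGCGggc
Nr4a1, chr15:101266696-101266845, plus strand: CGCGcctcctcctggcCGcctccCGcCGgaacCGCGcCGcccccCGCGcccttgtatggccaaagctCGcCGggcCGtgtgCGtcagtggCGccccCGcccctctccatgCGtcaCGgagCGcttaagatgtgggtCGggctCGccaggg
Rorb, chr19:19001118-19001267, minus strand: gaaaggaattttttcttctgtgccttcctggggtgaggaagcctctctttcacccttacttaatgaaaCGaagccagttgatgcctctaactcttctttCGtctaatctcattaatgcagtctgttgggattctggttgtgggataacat
Nr1i2, chr16:38294825-38294974, minus strand: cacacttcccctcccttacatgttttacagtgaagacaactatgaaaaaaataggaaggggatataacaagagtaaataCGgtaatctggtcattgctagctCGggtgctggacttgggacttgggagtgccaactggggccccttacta
Hnf4a, chr2:163547005-163547154, plus strand: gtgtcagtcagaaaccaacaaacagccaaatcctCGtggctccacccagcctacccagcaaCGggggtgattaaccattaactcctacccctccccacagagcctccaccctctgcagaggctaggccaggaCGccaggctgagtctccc
The stretches of Rora, Rxra and Nr4a1, all muscle receptors, held 14, 30 and 21 CpGs and lay under peaks over 100%, 100% and 79.3% of their length. The stretches of Rorb, Nr1i2 and Hnf4a held 2, 2 and 3 CpGs and none of their bases was covered, with the TSS 108840 bp, 9304 bp and 2343 bp from the nearest peak. Rorb also has a RefSeq promoter at the TSS of Rorb-203, which lay 32 bp from the only Rorb peak. Over the longer stretch described below, that promoter held 20 CpGs, against 5 at the Rorb promoter shown. Only the promoter shown was used to class Rorb below.

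Over the stretch around the TSS that the RefSeq table holds, from 250 bases before to 50 after, 41 of the 45 members could be matched. Thra, Nr5a1, Nr3c1 and Hnf4g were not in the table. For Nr4a2, Nr2f2, Nr3c2 and Nr4a3 the nearest entry was an alternative promoter 3809 to 8965 bp from the TSS of the longest coding transcript. A promoter was called CpG-rich when CpG was at least 0.6 of its expected frequency and the GC content at least 50%. By this rule 10 of 14 muscle receptors were CpG-rich, as were 8 of 15 of wide use and 1 of 12 of the other organs, Nr2e1. All 19 CpG-rich members had a promoter peak, and so did 95.4% of all CpG-rich protein-coding genes. Of the CpG-poor members 17 of 22 had one, against 45.4% of all CpG-poor genes. Within the CpG-poor class a promoter peak was present in 4 of 4 muscle receptors (Esr1, Nr1d1, Nr2f2 and Vdr), in 7 of 7 of wide use and in 6 of 11 of the other organs. These peaks could lie at any TSS of the gene. The TSS of the classed promoter itself lay under a peak in 9 of 22 CpG-poor members (40.9%), against 31.4% of all CpG-poor genes. By group this held for 2 of 4 muscle receptors, 5 of 7 of wide use and 2 of 11 of the other organs. In the CpG-rich class it held for 17 of 19 members and 91.4% of all genes. The groups therefore differ in promoter class as well as in peaks, and the part of promoter class in the peak widths was not tested.

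By family, the thyroid hormone and retinoic acid receptors are described first. Thra, the thyroid hormone receptor that predominates in muscle, had a widest promoter peak of 7666 bp over exon 2 at chr11:98747730-98755395, all 8 of its TSSs lay inside peaks, and 53.9% of the gene was covered. Thrb, which mediates feedback in pituitary and liver actions of the hormone, had a 4186 bp peak and 1.68% of the gene covered. The Thrb peak lay over the upstream TSSs only. Those of Thrb-201, Thrb-203, Thrb-204, Thrb-205 and Thrb-206 were inside it, whereas the downstream TSSs of Thrb-207 and Thrb-202 lay 216451 bp and 235159 bp from the nearest peak.

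The retinoic acid receptors Rara, Rarb and Rarg had widest promoter peaks of 10096, 7939 and 4920 bp. Rara, the broadly expressed member, was also the most covered, at 67.02% of the gene, and all 7 of its TSSs lay inside peaks. In Rarb, itself a well known target of retinoic acid, the 7939 bp peak at chr14:16569780-16577718 contained the TSSs of 5 transcripts, Rarb-201 among them. The TSSs of Rarb-203 and Rarb-204, at the far 5′ end of the same gene, lay 219398 and 219247 bp from a peak, and the first 2 of 5 equal parts of the gene, counted from its 5′ end, were not covered at all. In both Thrb and Rarb the promoter peaks lay at 1 promoter region, and the other annotated promoter region, far from it, had none.

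The Thra, Nr1d1 and Rara genes lie together on chromosome 11 and their paralogs Thrb, Nr1d2 and Rarb together on chromosome 14, a known pair of related blocks. The chromosome 11 block, 234.3 kb from the start of Thra to the end of Rara, held 39 peaks over 40.5% of its length, or 16.6 peaks per 100 kb. The chromosome 14 block was 1808 kb long and also held 39 peaks, over 3.34% of its length, or 2.16 per 100 kb. The block values include the stretches between the receptor genes. On chromosome 11 many of the peaks lay between Nr1d1 and Rara, outside the 3 genes. Other genes in the blocks were not counted, and their part in the difference between the blocks was not tested. In each of the 3 paralog pairs the chromosome 11 gene was the more covered, by 52.2 percentage points in Thra over Thrb, 55.9 in Rara over Rarb and 58.5 in Nr1d1 over Nr1d2. Thra and Nr1d1 overlap at their 3′ ends and share a peak of 628 bp there.

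**Figure D3:**
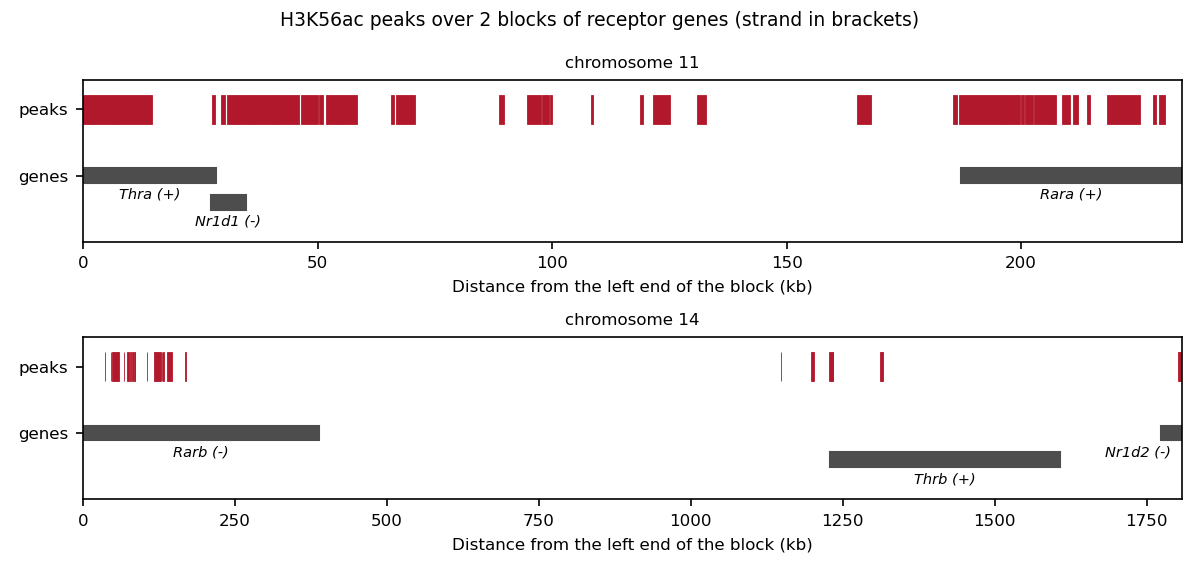
H3K56ac peaks (red) and receptor genes (grey, strand in brackets) over the block of Thra, Nr1d1 and Rara on chromosome 11 and that of Rarb, Thrb and Nr1d2 on chromosome 14, by distance in kb from the left end of each block. The 2 panels have different scales: the upper block is 234.3 kb with 40.5% covered, and the lower is 1808 kb with 3.34% covered. Other genes are not drawn.

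The clock receptors and the ROR family act on shared DNA elements, the former as repressors and the latter as activators. Nr1d1, which encodes REV-ERBα, had the highest covered share of all members, 71.6%. Its widest promoter peak of 4965 bp lay upstream, and the peak over the TSS of Nr1d1-201 was 3204 bp wide. Nr1d2, encoding REV-ERBβ, had a 3303 bp peak over exon 1 and 13.1% covered. Rora was marked along its whole length. It held 219 peaks, more than any other member, over 51.4% of 734.5 kb, its promoter peak was 6223 bp wide at chr9:68651563-68657785, and all 5 of its TSSs, up to 635896 bp apart, lay inside peaks. Rorb, a receptor of retina and brain, was hardly marked. Its only peak, 1208 bp wide, lay 32 bp from the TSS of Rorb-203 without reaching it, 0 of its 4 TSSs lay in a peak, and 0.669% of its 180.6 kb was covered.

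**Figure D4:**
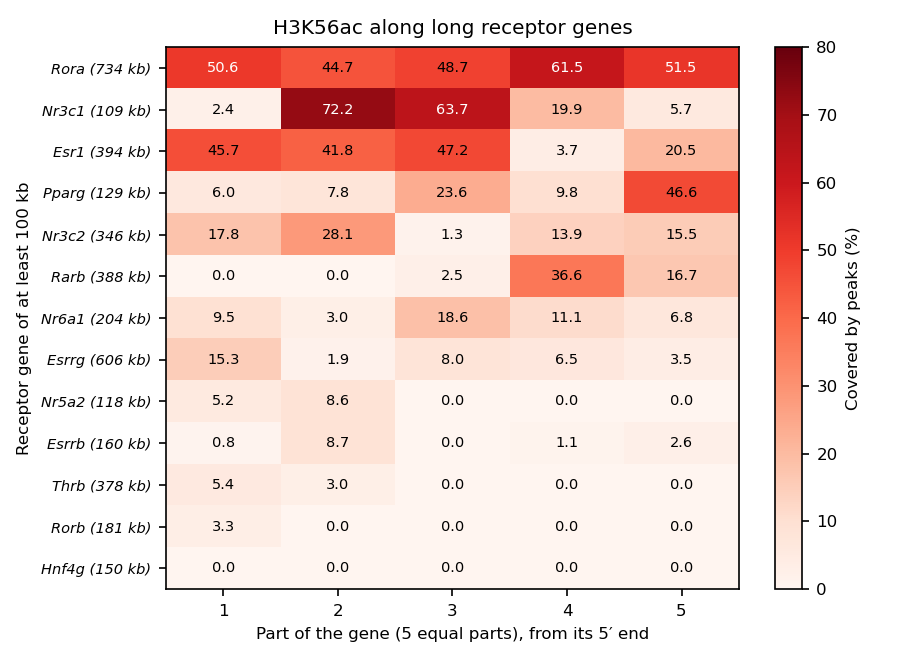
Share (%) of each of 5 equal parts of the gene, from the 5′ end to the 3′ end, covered by H3K56ac peaks in the 13 receptor genes of at least 100 kb, with the gene length in brackets. Rora ranged from 44.7% to 61.5% over its parts, whereas Nr3c1 was highest in parts 2 (72.2%) and 3 (63.7%), Rarb in part 4 (36.6%), and Thrb, Rorb and Nr5a2 had nothing beyond part 2.

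Among the retinoid X receptors, the shared heterodimer partners, Rxra and Rxrb were broadly marked and Rxrg was not. Rxra had a 9222 bp peak at chr2:27675891-27685112 over exon 1, all 6 TSSs inside peaks and 66.6% of the gene covered by 22 peaks. Rxrb had a 10507 bp peak, which also covered the TSSs of the neighbours Ring1, H2-Ke6 and Slc39a7, so it cannot be given to Rxrb alone. Non-coding genes also start under the widest promoter peaks of Rarb (Gm48162), Nr2f1 (A830082K12Rik) and Nr3c2 (Gm10649). Rxrg, the member known from skeletal muscle, had a 1755 bp peak and 6.82% covered, although all 4 of its TSSs lay inside peaks. The marked sequence was narrow there but present at every start.

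The PPARs sense fatty acids. Ppard, the main PPAR of skeletal muscle, had an 11667 bp peak over exons 1 and 2 at chr17:28232455-28244121, the second widest of all members, and 53.1% of the gene was covered. Ppara, the PPAR of liver and oxidative tissues, had a 3389 bp peak, the only peak in the gene, which covered 4.03% of it, while 44.8% of the 100 kb on either side was covered, more than around any other member. Pparg, the regulator of fat cell differentiation, had a widest promoter peak of 3614 bp in intron 1. The TSSs of Pparg-202, Pparg-204 and Pparg-206 lay together under a 3181 bp peak and that of Pparg-201 under a 1298 bp peak, and the last of its 5 equal parts was the most covered, at 46.6%. The liver X receptors, sensors of oxysterols, had peaks of 4767 bp (Nr1h2) and 3214 bp (Nr1h3), the latter over the TSS of the neighbour Acp2.

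The steroid receptor genes held the widest promoter peak of all 45. In Esr1, which encodes the oestrogen receptor ERα, a 13880 bp peak at chr10:4709017-4722896 lay over exon 2 and the TSS of Esr1-202 and Esr1-203, and it was wider than the widest promoter peak of 99.02% of protein-coding genes. The TSS of Esr1-201, 98134 bp upstream, lay under a 4119 bp peak. The widest peak anywhere in a member was also in Esr1, 16349 bp over exon 4, and 61 peaks covered 31.8% of its 394 kb. Esr2, encoding ERβ, had a single promoter peak of 1476 bp, and 2.22% of it was covered.

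Nr3c1, the glucocorticoid receptor gene, had an 8419 bp peak at its main promoters, and each of its 9 TSSs lay inside a peak (8419, 1642 or 1177 bp wide). Coverage was concentrated in parts 2 and 3 of the 5 equal parts of the gene, at 72.2% and 63.7%. Nr3c2, the mineralocorticoid receptor gene, had a 3910 bp peak over its upstream TSSs and 42 peaks over 15.4% of the gene, while the TSS of Nr3c2-201 lay 874 bp from a peak. Pgr, the progesterone receptor gene, had a 771 bp peak and 1.89% covered. Within this family the ligand receptors of the adrenal hormones and ERα were thus marked over several promoters, and Esr2 and Pgr over short stretches.

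The oestrogen-related receptors are orphan regulators of mitochondrial and oxidative genes in muscle and heart. Esrra had a 3388 bp peak over exons 1 and 2, all 5 TSSs in peaks and 35.9% covered. Esrrg had a widest promoter peak of 1846 bp, with all 5 TSSs in peaks and 39 peaks over only 7.04% of 606.1 kb. Esrrb, best known from pluripotent cells, had a 1262 bp peak and 2.65% covered. The order of the 3 was the same in both measures.

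The NR4A orphan receptors are immediate early genes, induced in muscle by exercise and adrenergic signals. Their widest promoter peaks were 2076 bp in Nr4a1, 3766 bp in Nr4a2 and 6500 bp in Nr4a3. The order by covered share was different, with 37.2%, 34.1% and 7.80%. In Nr4a3 the 6500 bp peak lay outside the exons and introns of the longest coding transcript, whose own TSS was 700 bp from a 1312 bp peak. In Nr4a1 the upstream TSS of Nr4a1-202 lay under the 2076 bp peak and the main TSS under one of 1508 bp.

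The COUP-TF receptors, orphan regulators of cell fate, differed widely between paralogs. Nr2f2 had a 5275 bp peak and 6 peaks over 69.3% of the gene, with 2.67% of the 100 kb on either side covered, whereas Nr2f1 had a 901 bp peak, 10.6% covered and 1 of 6 TSSs inside a peak. Nr2f6 had a 4080 bp peak and 54.2% covered. The testicular receptors Nr2c1 and Nr2c2, which despite their name are widely expressed, had peaks of 3117 and 6855 bp. Vdr, the vitamin D receptor gene, had the narrowest widest promoter peak (964 bp) and the lowest covered share (3.06%) of the muscle receptors. None of its TSSs lay in a peak (0 of 5). The main TSS lay in a gap between the 964 bp peak, 63 bp away, and another promoter peak of 753 bp.

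The receptors of liver and gut had a promoter peak in 2 of 7 genes, the lowest share of the 5 groups, and a median covered share of 0%, as did those of retina and brain. The bile acid receptor gene Nr1h4, the xenobiotic receptor genes Nr1i2 and Nr1i3, Hnf4g and the corepressing receptor gene Nr0b2 had no promoter peak. The nearest peak to any of their TSSs was 61807 bp away for Nr1h4, 9304 bp for Nr1i2, 6983 bp for Nr1i3, 326554 bp for Hnf4g and 6083 bp for Nr0b2. Hnf4g, whose 150 kb held no peak, lay in a peak-free stretch of 1907 kb. Nr1i3 and Nr0b2 by contrast sat in marked surroundings, with 21.2% and 18.2% of the 100 kb on either side covered and no peak in the gene.

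Hnf4a and Nr5a2 were the liver and gut receptors with a promoter peak. The 686 bp peak of Hnf4a lay in intron 1 over the TSS of Hnf4a-204, and those of Hnf4a-201 and Hnf4a-205 were 2310 bp and 24288 bp from the nearest peak. The 781 bp peak of Nr5a2, the gene of LRH-1, also lay in intron 1, 6481 bp from the TSS of the longest coding transcript. These were narrower than the median of all 105600 peaks, 974 bp.

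The 4 gonad and germ cell receptors all had promoter peaks. Apart from Esr2 and Pgr these were a 1650 bp peak at Nr5a1, the gene of the steroidogenic factor SF-1, which lay over exons 2 and 3 and 2709 bp from the main TSS, and a 4205 bp peak at Nr6a1, the germ cell nuclear factor gene. The Nr6a1 peak lay in intron 3, where several shorter transcripts start, and the TSS of Nr6a1-201 lay under another peak of 2454 bp. Of the receptors of retina and brain beside Rorb, Nr2e1, encoding the neural stem cell receptor TLX, had a 687 bp peak 400 bp from its main TSS and none in the gene. Nr2e3, the photoreceptor receptor gene, had no promoter peak, the nearest being 8195 bp from any of its TSSs.

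Counting the gene with 3 kb on either side, the members held 610 distinct peaks, with a median width of 961 bp against 974 bp in the whole list. Of these 610 peaks 42 were at least 5 kb wide, as were 6339 of the 105600 in the whole list. Most of the member peaks lay away from promoters, and the same share was not computed over all protein-coding genes. Of 613 pairs of a gene and a peak, 491 (80.1%) were more than 3 kb from any TSS of that gene. The shares were 86.5% of 428 in the muscle receptors, 68.2% of 154 in those of wide use and 51.6% of 31 in the 14. These shares count peaks and not genes, so long genes with many peaks weigh most. Rora alone held 219 peaks and Esr1 61, and the muscle share without them was not computed. Over whole genes the median covered share was 35.0% in the muscle receptors (range 3.06% to 71.6%), 17.9% in those of wide use (1.68% to 67.02%) and 1.28% in the 14 (0% to 9.80%), against 7.82% in all protein-coding genes. The median gene length was 61.5 kb in the 14 and 41.3 kb in the muscle receptors, and the part of length in the covered share was not tested. In the 100 kb on either side the medians were 21.1%, 15.2% and 6.62%, against 9.25% for all protein-coding genes.

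**Figure D5:**
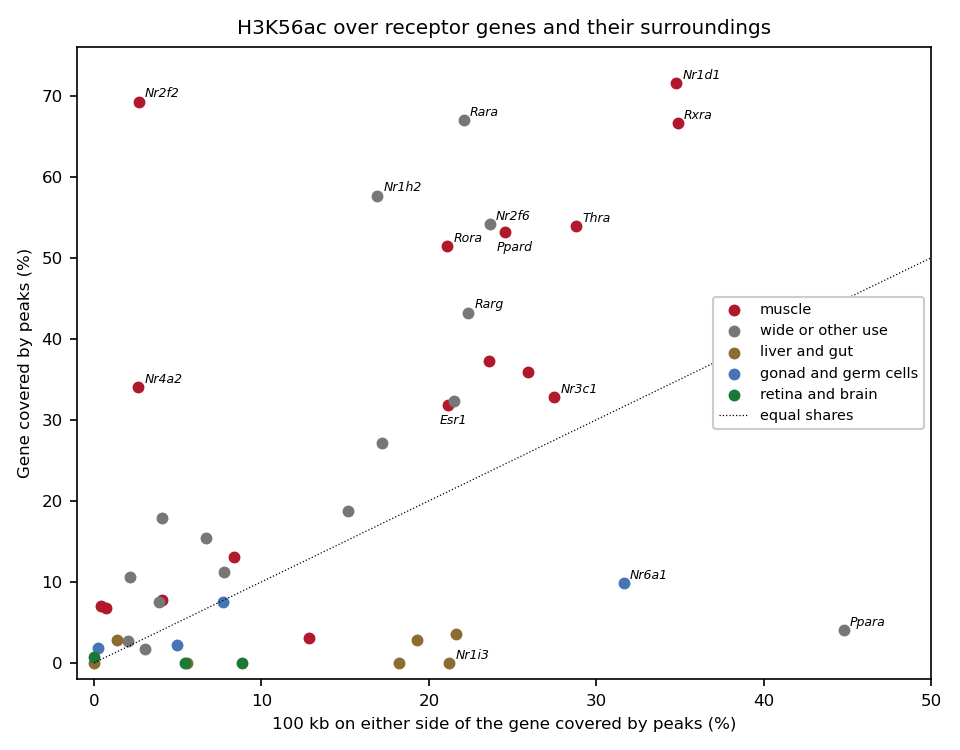
Share of each receptor gene covered by H3K56ac peaks (%) against the share of the 100 kb on either side covered (%), with 1 point per gene coloured by group and equal shares as a dotted line. Nr2f2 (69.3% against 2.67%) lies farthest above the line among genes in sparsely marked surroundings, and Ppara (4.03% against 44.8%) lies farthest below it.

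Many receptors recognise the letters AGGTCA, alone or repeated, so the RefSeq promoters were searched for them on both strands, as AGGTCA or its reverse complement TGACCT. They were found in 16.3% of all 32851 promoters and in 11 of 62 promoters of members (17.7%), in 10 genes. The stretches of 3 are shown because the letters lie close to the TSS, in 2 cases under a peak and in 1 without. They are the 120 bases that end before the TSS, with the match in capitals.
Rxra, chr2:27709172-27709291, plus strand: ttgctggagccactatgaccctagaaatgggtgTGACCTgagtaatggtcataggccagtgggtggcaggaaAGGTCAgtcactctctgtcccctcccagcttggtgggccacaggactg
Rxrg, chr1:167618145-167618264, plus strand: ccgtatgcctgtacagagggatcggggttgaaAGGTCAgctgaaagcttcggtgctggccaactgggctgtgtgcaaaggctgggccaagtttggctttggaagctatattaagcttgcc
Nr5a2, chr1:136960449-136960568, minus strand: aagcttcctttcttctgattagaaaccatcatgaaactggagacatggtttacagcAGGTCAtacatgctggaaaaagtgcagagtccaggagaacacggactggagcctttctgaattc
In the internal promoter of Rxra, at the TSS of Rxra-202, the letters began 87 and 48 bases before the TSS, under a peak over all 120 bases. In Rxrg they began 88 bases before the TSS, also inside a peak. In Nr5a2 they began 64 bases before a TSS that was 6481 bp from a peak. Other letters searched were the E-box CACGTG, read by clock factors, in 6 of 62 member promoters and 7.15% of all, and the cAMP response element TGACGTCA, in 2 of 62 and 1.79% of all. A match is only a match of letters, and no binding was measured.

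Genes that act with the receptors were read from the same list, beside all protein-coding genes, of which 67.8% had a promoter peak and 16.5% had one that reached 5 kb, with a median widest peak of 2303 bp. Each of 18 coregulator genes had a promoter peak, which reached 5 kb in 8, with a median widest peak of 4796 bp. The widest were at the coactivator genes Ncoa1 (10829 bp), Ncoa3 (8772 bp) and Ppargc1b (8236 bp). Of 13 genes of retinoid handling 11 had a promoter peak (84.6%, 95% Wilson interval 57.8% to 95.7%, which holds the share of all genes), and it reached 5 kb in 2 (15.4%). They were led by the retinaldehyde dehydrogenase gene Aldh1a1 (11118 bp), Rdh10 (5692 bp) and Dhrs3 (4569 bp), and Aldh1a3 and Stra6 had none. Of 13 genes that handle thyroid hormone, steroids and vitamin D 10 had one (76.9%, interval 49.7% to 91.8%), again near the share of all genes. The thyroid hormone transporter gene Slc16a10 (7324 bp), the cortisone reductase gene Hsd11b1 (6213 bp) and the activating deiodinase gene Dio2 (5005 bp) led, and Dio1, Slco1c1 and Cyp24a1 had none.

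Known direct targets of the receptors were read in 2 lists, beside the same 67.8% and 16.5% of all protein-coding genes. All 17 targets with wide use had a promoter peak, and in 13 of them (76.5%) it reached 5 kb, with a median of 6646 bp and the widest at Klf9 (24476 bp), Klf15 (11632 bp) and the clock output gene Dbp (11581 bp). Klf9 and Klf15 are targets of the glucocorticoid receptor. Of 10 targets of liver receptors 4 had a promoter peak (40%, interval 16.8% to 68.7%) and none was as wide as 5 kb. These were led by Fgf15 (3250 bp), Apoa1 (1622 bp) and Ttr (641 bp), while Cyp7a1, the rate-limiting enzyme gene of bile acid synthesis, Abcb11, Cyp3a11, Cyp2b10, Apoc3 and Slc10a1 had none. These lists were chosen for their known roles, and the difference between them was not tested.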

How the data were processed

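ChIP-seq libraries of H3K56ac and input from freshly isolated, FACS-sorted MuSCs were sequenced on the Ion Torrent platform. The authors trimmed reads with Trim Galore, kept those with a single bowtie alignment to mm10, removed duplicates with Picard, called peaks with MACS2, dropped blacklisted regions and merged overlapping peaks with GenomicRanges. The labels also name FastQC, SAMtools and deepTools. The deposited list holds the chromosome, start and end of each merged peak. Its score column is 0 throughout, and 0 columns hold values per sample. Keeping single alignments leaves repeats and near-identical gene copies with fewer peaks.

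Here, positions (counted from 1) were compared with GENCODE vM21 on GRCm38, the same assembly as mm10, in Python 3.11.15 with pandas 2.3.3 and numpy 2.4.6. A promoter reaches 3 kb either side of any annotated TSS, a gene's covered share is the part of its bases under peaks, and exon and intron numbers follow the transcript with the longest coding sequence. All 45 members are named, with the 3 widest and the unmarked genes of each other list. The members, groups and lists were chosen with earlier results of these data known. Interval functions were tested on simulated data. Genotypes were not compared, because that needs values per library. The alternatives were a 1 kb promoter, coding transcripts only, 1 TSS per gene, joined peaks, peaks of at least 500 bp, peak midpoints, 3 kb added to genes and trimmed groups.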

Additional observations from a re-analysis of the deposited data

How the results depend on the processing

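Of 42 values recomputed for 7 results under the alternatives, 41 stayed within the interval of the main value. For the medians these intervals are wide. They run from 2076 to 8419 bp for the widest promoter peak of the muscle receptors and from 0 to 1476 bp for the 14 of other organs. A value can therefore change much and still stay inside. The exception was the median widest promoter peak of the muscle receptors, which rose from 5120 to 10178 bp when intervals less than 1 kb apart were joined. This follows from the joining, which fuses neighbouring peaks. Under it 9 muscle receptors and 1 of the 14 receptors of liver, gut, gonad, retina and brain had a promoter peak that reached 5 kb. With peak midpoints 6 muscle receptors did, their median was 3577 bp, and Rxrb lost its promoter peak. With 1 TSS per gene Nr5a2, Rorb and Thrb lost theirs, 42.9% of the 14 kept one, and the median of the 14 fell to 0 bp. The median covered share of the 14 was 2.91% with 3 kb added to the genes and 0.669% without Nr6a1. No paired analysis was possible because no peak could be traced to a library, and the comparison of Sirt6mKO with Control and its alternatives were not run for the same reason. Widths and coverage describe a union of libraries whose depths could not be tied to peaks, and a gene without a peak is one where none was listed.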
